A study of Mus musculus with 54 samples.

Results

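AY036118 and Gm10076 are a pair of mouse genes annotated as long noncoding RNAs, and they were followed here through 54 kidney libraries that had been prepared fresh, stored or as nuclei. They are 2 of 33126 genes listed in at least 1 deposited file, and they were chosen because earlier work on these libraries had shown higher values after storage, so their stored against fresh values are given as a description without a test. AY036118 was listed for 39 of 39 10x libraries and is not analysed here in bulk RNA. Gm10076 was listed for all 39 10x and all 15 bulk libraries.

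The libraries fell into 18 groups of 3. Male AFAPIL.1DEL C57BL/6J mice of 1 litter, 19 weeks old, gave kidneys dissociated either cold with a bacterial protease or warm with a commercial enzyme kit. Each suspension was loaded fresh, after 6 weeks of cryopreservation in a DMSO medium, or after 3 months of methanol fixation, and its remaining cells were used for rRNA-depleted bulk RNA. Male Balb/c mice of 18 weeks gave cold-dissociated fresh cells, nuclei from flash-frozen kidney washed 3 times at 500 g and sorted (3x500g), and rRNA-depleted bulk RNA of intact kidney. Female wild type Balb/c mice of 15 weeks, formerly breeders, gave cold-dissociated cells either fresh or cryopreserved for 2 weeks. Such females, not stated to be the same animals, also gave nuclei prepared by 3x500g, by 1 spin at 2000 g with sorting (1x2000g) or over sucrose without sorting, and poly(A)-selected bulk RNA of intact kidney and of cold suspensions. Each group of 3 came from different mice. The 10x libraries of the C57BL/6J and male Balb/c mice used version 2 chemistry and those of the females version 3. The cryopreserved female cells were also spun at another speed for thawing and resuspension. Mouse, chemistry, spin speed and storage time therefore cannot be told apart between experiments. Within the C57BL/6J mice, the kind of storage cannot be told apart from its length.

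The 10x libraries held 983522 to 35170947 UMIs (unique molecular identifiers, each standing for 1 captured RNA molecule) and the bulk libraries 2326998 to 31093949 counts. Of 175959 barcodes, 146450 (83.2%) were placed in 1 of 11 kidney cell classes by marker genes, and 24060 (13.7%) lay near the limit of a class. In cells the classes drew a median of 86.1 to 96.1% of their marker UMIs from their own markers, and in nuclei 68.4 to 92.8%. Macrophage, T and NK cell and B cell classes were nearly empty in nuclei. Libraries of the same chemistry shared at most 2.05% of the barcodes of the smaller library. Levels are given as CPM, the counts of a gene scaled to a common library total, with mitochondrial genes left out of that total in 10x and bulk libraries.

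Ribosomes are built from rRNA and a large set of small proteins. The rRNA is cut from long precursors transcribed from repeated ribosomal DNA, and mature rRNA carries no poly(A) tail, whereas 10x 3′ chemistry primes from runs of A and keeps the strand of each molecule. Ribosomal protein mRNAs are among the most abundant polyadenylated RNAs of any cell, and their reverse-transcribed copies have left many processed pseudogenes in the mouse genome. Both genes sit beside such families. In GENCODE vM21, a later annotation than the one the authors counted with, AY036118 (ENSMUSG00000105361) is a single exon of 923 bases at chr17:39847113-39848035 on the minus strand of GRCm38. Its whole length is the exact reverse complement of bases 156 to 1078 of Gm42418 (ENSMUSG00000098178, plus strand, 1831 bases). Gm42418 lies in an 18S rRNA-like segment. AY036118 is also identical to bases 167 to 1089 of CT010467.1, a gene model on its own strand that the annotation labels as rRNA. This label does not show which strand has the sense of mature 18S rRNA, and that was not tested. Gm26917, another noncoding gene, lies next to these genes at chr17:39843013-39846341.

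The end of AY036118 and the stretch of Gm42418 that faces it are shown because the same bases are counted for one gene or the other by strand alone. Then follow the longest runs of A in the 2 genes (4 bases in AY036118 and 6 in Gm42418), in capitals, since oligo-dT primes on A.
AY036118 3′ end, chr17:39847113-39847172, minus strand: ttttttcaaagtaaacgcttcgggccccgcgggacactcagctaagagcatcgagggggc
Gm42418, the same bases, plus strand: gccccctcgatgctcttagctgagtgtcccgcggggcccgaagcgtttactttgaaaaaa
AY036118, chr17:39847354-39847397, minus strand: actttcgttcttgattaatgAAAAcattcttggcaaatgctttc
Gm42418, chr17:39847147-39847192, plus strand: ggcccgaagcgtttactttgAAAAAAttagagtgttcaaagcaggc

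Gm10076 (ENSMUSG00000060143) spans 384 bases at chr14:105681828-105682211, plus strand, and matched an annotated Rpl41 transcript at 381 of 384 bases. Rpl41, on chr10:128548114-128549305, minus strand, encodes a very short basic protein of the large ribosomal subunit. The 3 substitutions, written as the Rpl41 base, the position from the 5′ end of Gm10076 and the Gm10076 base, were C1G, C127T and G234A. The last 150 bases were identical, so a read that lies wholly within them cannot be assigned to either gene, and the split of reads between the 2 genes is uncertain. The open reading frame of Rpl41 (78 bases, first and last codon in capitals) runs unchanged through bases 42 to 119 of Gm10076. The windows around the inner substitutions show, in capitals, the bases that tell the genes apart.
Rpl41 open reading frame: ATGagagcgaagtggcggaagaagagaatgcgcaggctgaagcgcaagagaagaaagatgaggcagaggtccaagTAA
Gm10076, chr14:105681940-105681968, plus strand: caagtaagccagccTgtgcacctacgacg
Rpl41, chr10:128548365-128548393, minus strand: caagtaagccagccCgtgcacctacgacg
Gm10076, chr14:105682047-105682075, plus strand: agtagacctggaacAtcacctcgccgcga
Rpl41, chr10:128548258-128548286, minus strand: agtagacctggaacGtcacctcgccgcga

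The level of AY036118 differed more between groups than within them. Mean levels in CPM (± SD, n = 3 libraries) rose in this order. Balb/c male cells had 3.18 ± 2.75, C57BL/6J cold fresh cells 11.8 ± 8.99, warm fresh cells 16.1 ± 3.03, cold cryopreserved cells 20.7 ± 7.62 and warm cryopreserved cells 33.7 ± 3.00. Balb/c male nuclei had 98.9 ± 19.7, female cells 154 ± 19.9, and female sucrose, 1x2000g and 3x500g nuclei 254 ± 27.1, 273 ± 17.3 and 305 ± 26.4. Female cryopreserved cells had 410 ± 84.4, and C57BL/6J cold and warm methanol-fixed cells 710 ± 210 and 1656 ± 643. Libraries of neighbours in this order overlapped from male cells through cold cryopreserved cells, among the 3 female nuclei preparations, and between female cryopreserved and cold methanol-fixed cells, while the other neighbours did not overlap.

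Gm10076 followed another order. Female nuclei were lowest, at 9.13 ± 1.83 (sucrose), 9.56 ± 3.77 (3x500g) and 9.92 ± 3.18 (1x2000g) CPM, below male nuclei at 42.4 ± 17.2. Female fresh and cryopreserved cells had 117 ± 0.648 and 146 ± 91.7, and C57BL/6J warm and cold fresh cells 712 ± 129 and 891 ± 142. Above these came cold methanol-fixed cells at 1662 ± 437, male Balb/c cells at 2063 ± 896, warm methanol-fixed cells at 2269 ± 55.4, and cold and warm cryopreserved C57BL/6J cells at 2769 ± 553 and 3002 ± 240. Unstored male Balb/c cells therefore overlapped the stored C57BL/6J cells. The libraries of neighbouring groups separated only between female and male nuclei, male nuclei and female fresh cells, female cryopreserved and warm fresh cells, and cold fresh and cold methanol-fixed cells.

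**Figure D1:**
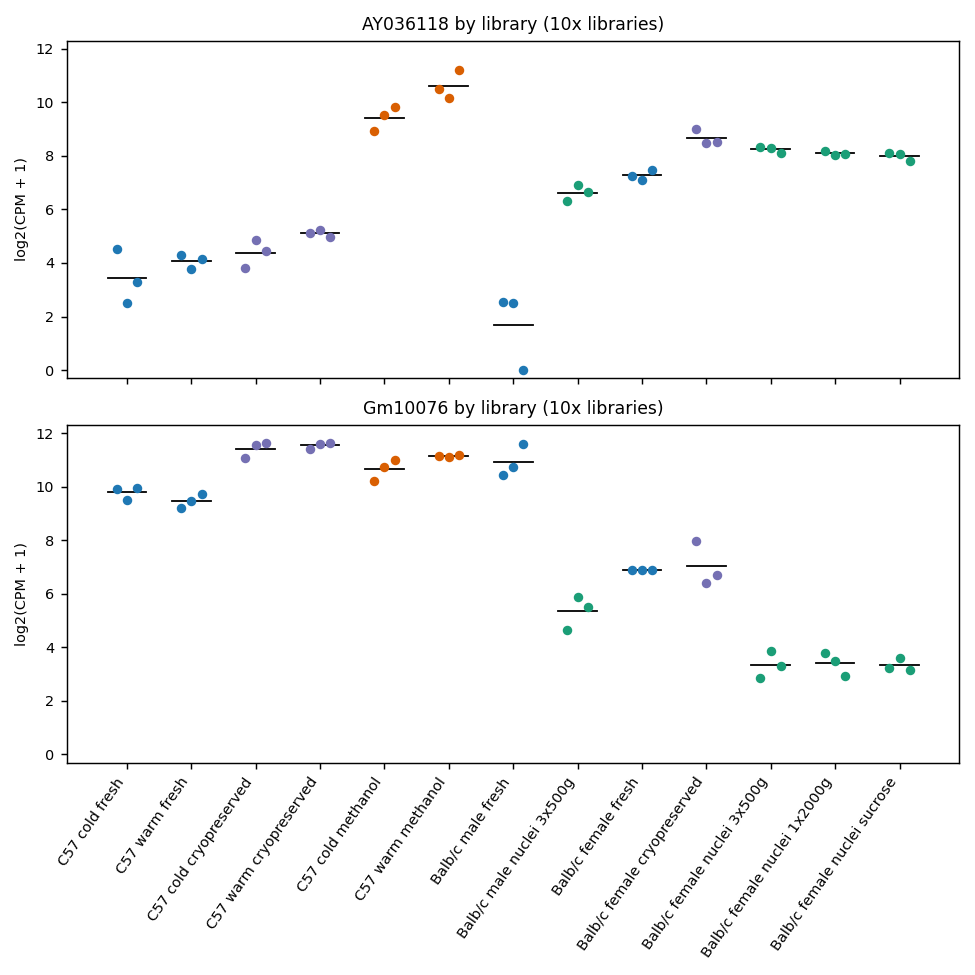
Levels of AY036118 (top) and Gm10076 (bottom) in the 39 10x libraries, as log2(CPM + 1); each point is a library and each bar the mean of the 3 log2 values of a group. AY036118 has its highest group means in methanol-fixed cells, and the cold methanol-fixed libraries overlap the female cryopreserved ones. Gm10076 is lowest in the 9 female nuclei libraries.

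Methanol fixation was where AY036118 stood farthest from fresh cells. In cold dissociation the fresh libraries had 21.9, 4.68 and 8.86 CPM (86, 26 and 47 UMIs), and the methanol-fixed libraries 490, 730 and 909 (1122, 3653 and 4792 UMIs). In warm dissociation the fresh libraries had 18.9, 12.9 and 16.6 and the methanol-fixed ones 1453, 1139 and 2376. Every methanol-fixed library lay above every fresh one, by a log2 ratio of means of 5.91 (60.1-fold) in cold and 6.68 (103-fold) in warm dissociation. With 1 CPM added to each mean, AY036118 ranked 1 of 7925 and 1 of 7112 genes by this ratio. Among all genes, 0.215% in cold and 0.506% in warm dissociation had 3 stored libraries above 3 fresh ones with such a log2 ratio of at least 1. Within suspensions, the stored aliquot exceeded the fresh one 22.4-, 156- and 103-fold in cold and 77.1-, 88.6- and 143-fold in warm dissociation.

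After cryopreservation, which was also shorter than the methanol storage, AY036118 differed far less from fresh cells. The cold cryopreserved libraries had 13.02, 28.3 and 20.8 CPM, which overlapped the fresh ones, with a log2 ratio of 0.81. One of the 3 suspensions had less AY036118 after cryopreservation (0.594-fold) and the others 6.04- and 2.34-fold more, on 20 to 66 UMIs per stored library. The warm cryopreserved libraries had 34.2, 36.5 and 30.5, all above the fresh ones, with a log2 ratio of 1.07 and with 23.6% of all genes meeting the same description. The 2 storage comparisons share their fresh libraries.

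The gene on the opposite strand gives a second measure within the same libraries. Of the UMIs counted for AY036118 and Gm42418 together, AY036118 took 46.6 to 52.0% in the 6 methanol-fixed libraries, 1.9 to 7.8% in the 6 fresh and 2.0 to 5.1% in the 6 cryopreserved C57BL/6J libraries. The UMIs of the 2 strands were thus close to even after methanol fixation and far from even in the other cells. In nuclei the share was 20.9 to 24.7% (male) and 14.9 to 26.6% (female), and in female cells 5.0 to 5.7% fresh and 5.2 to 6.2% cryopreserved. It is a share of counts, and not a comparison of levels per length. The 95% Wilson interval of a share was at most 10.7 points wide in cells, in a male library with 8 AY036118 UMIs, and 3.08 points in nuclei. These intervals cover counting error only.

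Gm42418 itself was higher in all stored C57BL/6J groups, by log2 ratios of 1.42 and 0.84 after cryopreservation and 1.49 and 2.01 after methanol fixation (cold and warm). In cryopreserved cells the plus-strand gene thus had a larger ratio than AY036118 in cold and a smaller one in warm dissociation, and in methanol-fixed cells AY036118 had the larger ratio in both.

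The UMIs of AY036118 were spread over many barcodes after methanol fixation. The gene had a UMI in 0.612 to 3.44% of barcodes in fresh, 2.12 to 5.50% in cryopreserved and 38.5 to 78.5% in methanol-fixed C57BL/6J libraries. With each barcode thinned to 500 UMIs, the shares were 0.272 to 1.24%, 0.481 to 1.98% and 22.2 to 68.7%, so the order was the same at equal depth. The most AY036118 UMIs in any 1 barcode was 2 in the fresh and cryopreserved C57BL/6J libraries and 6 to 17 in the methanol-fixed ones. No cell type is known to lack the gene, so no background share from free RNA could be given, and a barcode with a UMI is not shown to be a cell that held the RNA.

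The higher AY036118 values after methanol fixation were seen in each cell class that could be compared. Methanol-fixed libraries lay above fresh ones in 11 of 11 classes in cold and 8 of 8 in warm dissociation. Over library sums, 18.4% (cold) and 17% (warm) of all genes lay above fresh at any size, and no share by class was computed. Where the fresh libraries held more than 3 AY036118 UMIs, the log2 ratio ran from 4.68 to 6.10 (7 classes, cold) and from 6.55 to 7.81 (5 classes, warm). In warm intercalated cells, which secrete acid or base in the collecting duct, the fresh libraries held no AY036118 UMI and the methanol-fixed ones were at least 95.3-fold higher, taking 3 counts over all fresh libraries as the floor. The level after methanol was alike from class to class, between 567 (stromal) and 905 (T and NK cell) CPM in cold and between 1344 (B cell) and 2001 (endothelial) in warm dissociation. These are spreads of 1.60- and 1.49-fold over class means. AY036118 took 40.5 (B cell) to 57.8% (T and NK cell) of the pair with Gm42418 in cold and 47.7 (thick ascending limb) to 55.2% (T and NK cell) in warm methanol-fixed classes.

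Transcripts that can be found free in suspensions were spread to unlike degrees over the same classes. The sum of 6 such transcripts differed 4.95-fold between the lowest and the highest class in cold and 5.90-fold in warm methanol-fixed cells, with proximal tubule, which makes these transcripts, highest. The summed hemoglobin genes, which mark red cell RNA, differed 2.72-fold between classes in cold and 1.34-fold in warm methanol-fixed cells. The spread of AY036118 over classes was thus narrower than that of both sums in cold, and in warm dissociation it was wider than that of the hemoglobin genes. The tubule sum was 46715 to 53583 CPM in cold fresh and 67794 to 74642 in cold methanol-fixed libraries, and 63186 to 66993 and 70717 to 81289 in warm ones. Hemoglobin genes summed to 5690 to 17623 in cold fresh and 14348 to 33801 in cold methanol-fixed libraries, which overlap, and to 2410 to 4645 and 5164 to 9034 in warm ones. Beside AY036118, the tubule sum was thus higher after methanol fixation in both dissociations and the hemoglobin sum without overlap in warm only, and their part in the AY036118 values was not tested.

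Cryopreservation was where Gm10076 stood highest. In cold dissociation its fresh libraries had 953, 729 and 992 CPM and its cryopreserved libraries 2141, 2982 and 3184, and in warm dissociation 589, 700 and 848 against 2726, 3126 and 3155. No stored library overlapped a fresh one. The log2 ratio was 1.64 (3.11-fold) in cold and 2.08 (4.22-fold) in warm dissociation, at ranks 634 of 8757 and 458 of 8460, and 16.7% and 23.6% of all genes met the same description. Each of the 6 suspensions had more after cryopreservation, by 2.25 to 4.62 times.

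After methanol fixation Gm10076 was higher as well. The cold libraries had 1200, 1718 and 2069 and the warm ones 2258, 2220 and 2329 CPM. All lay above the fresh libraries, with log2 ratios of 0.90 (1.86-fold) and 1.67 (3.19-fold). The cold ratio fell short of the limit of 1, and 18.4% of all genes had 3 stored libraries above 3 fresh ones at any size in that comparison. Gm10076 ranked 34 of 7925 in cold and 14 of 7112 in warm dissociation.

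Its near-identical parent moved otherwise. Rpl41 had log2 ratios of 0.24 and 0.41 after cryopreservation and -0.67 and -0.12 after methanol fixation (cold and warm). Of the UMIs given to either gene, Gm10076 took 15.7, 11.3 and 13.6% in cold fresh and 12.0, 12.97 and 15.8% in warm fresh libraries. It took 26.2, 29.0 and 31.4% in cold and 32.1, 34.7 and 33.1% in warm cryopreserved libraries, and 26.4, 32.4 and 34.8% in cold and 35.7, 33.6 and 36.6% in warm methanol-fixed libraries. Both kinds of storage thus had shares about as high as each other and above every fresh C57BL/6J library. Male Balb/c fresh cells, never stored, had shares of 19.6, 23.4 and 30.2%, which reached the range of the stored libraries. The 2 genes differ at 3 bases, so this split rests on the reads that cover a difference, and on how long the reads are. The methods give more than 1 read length for version 2 chemistry without saying which library had which, so read length may also differ between the fresh and stored libraries, and its part in the share was not tested.

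**Figure D2:**
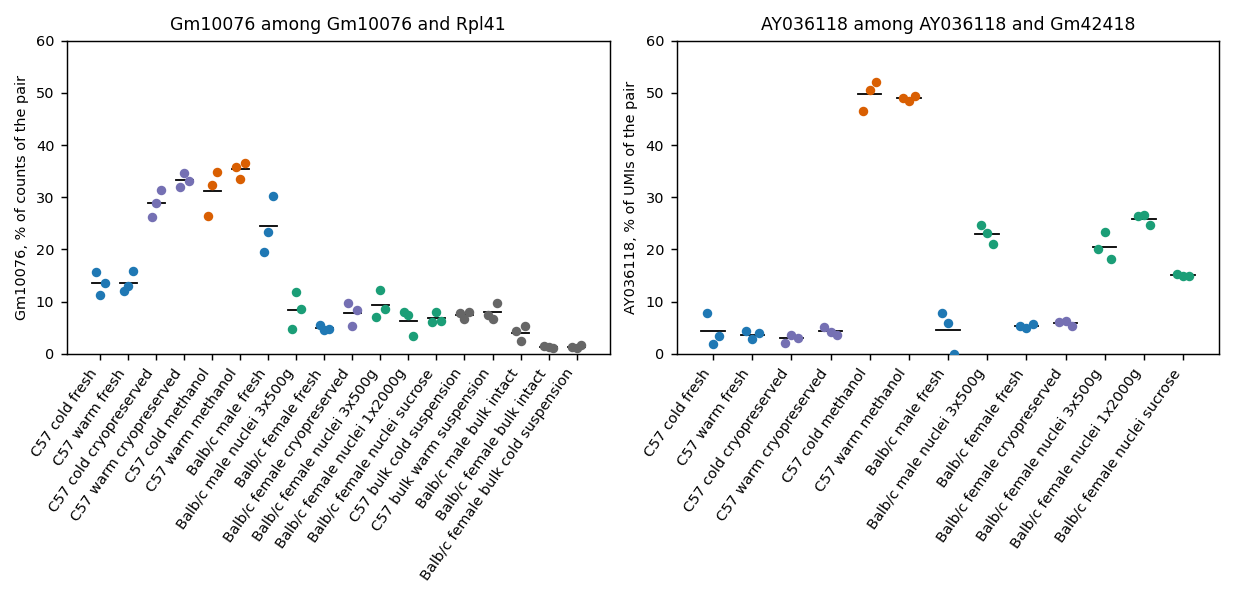
Share of Gm10076 in the counts of Gm10076 and Rpl41 (left, 54 libraries) and of AY036118 in the UMIs of AY036118 and Gm42418 (right, 39 10x libraries), in percent; each point is a library and each bar a group mean. The stored C57BL/6J libraries hold 26.2 to 36.6% Gm10076, and the methanol-fixed ones 46.6 to 52.0% AY036118.

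The share of Gm10076 was also alike from class to class. Class means lay between 10.8 and 14.8% in fresh C57BL/6J cells, between 27.8 and 34.9% in the cryopreserved and between 30.5 and 36.1% in the methanol-fixed cells that could be compared. Over library sums, 36.6% and 44.2% of all genes lay above fresh after cryopreservation and 18.4% and 17% after methanol fixation (cold and warm). No such share was computed by class. Gm10076 was higher without overlap in 10 of 10 and 8 of 8 classes after cryopreservation. After methanol fixation it was so in 11 of 11 and 8 of 8 (cold and warm). B cells and T and NK cells, which are small and rich in ribosomal protein mRNA, had its highest class means in C57BL/6J cells both before and after storage. In cold fresh cells B cells had 1175 ± 219 and podocytes, the filter cells of the glomerulus, 550 ± 20.9 CPM, and in cold cryopreserved cells 3778 ± 742 and 1802 ± 298. Cryopreserved C57BL/6J suspensions held only 14 and 10 gated proximal tubule cells (cold and warm), too few to give a value for that class.

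**Figure D3:**
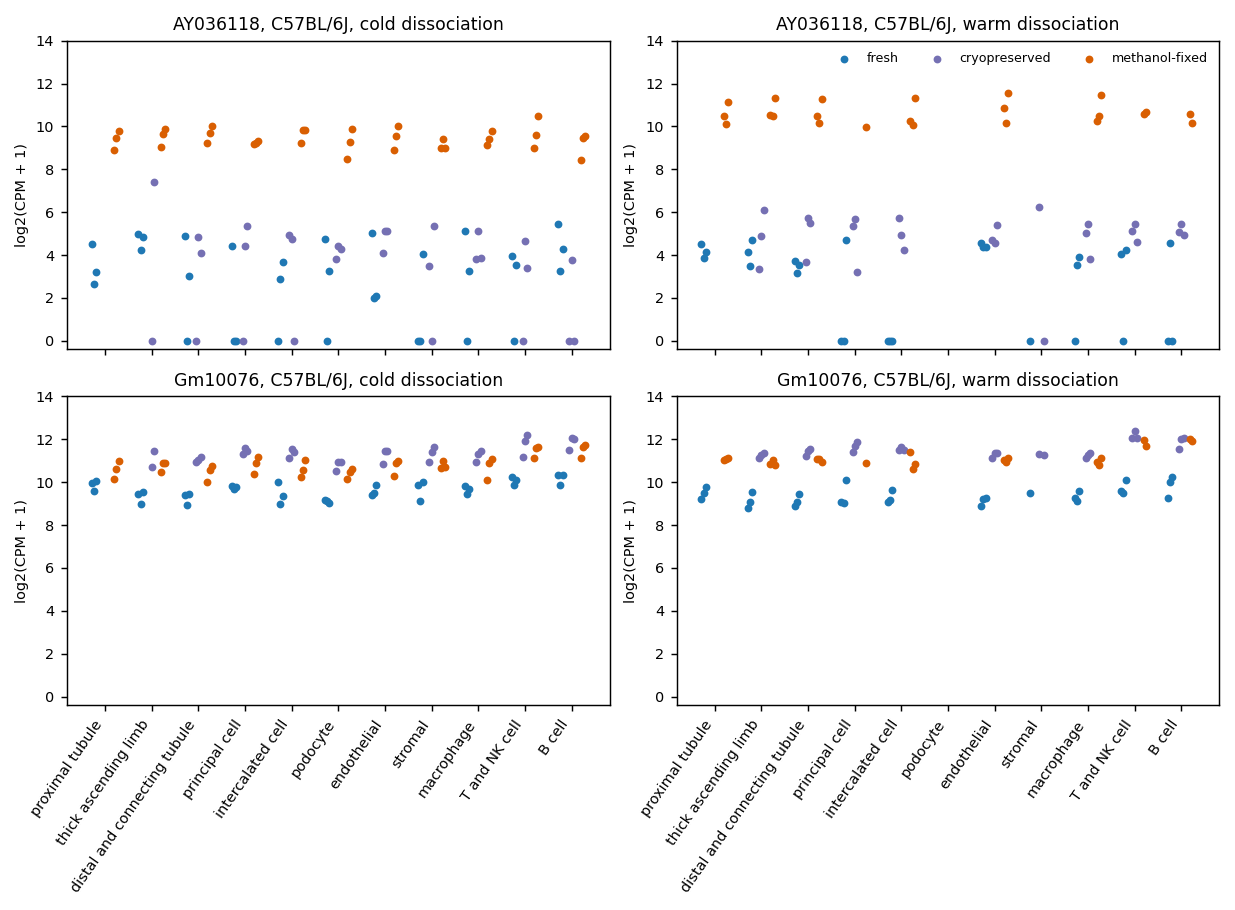
Levels of AY036118 (top) and Gm10076 (bottom) by marker-gated class in cold (left) and warm (right) C57BL/6J libraries, as log2(CPM + 1); each point is a library with at least 10 cells of the class, and colours give fresh, cryopreserved and methanol-fixed cells. Methanol-fixed points of AY036118 lie above all fresh points in each class shown with both, while stored points of Gm10076 of both kinds lie above the fresh ones in each class compared.

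The repeat of cryopreservation in female Balb/c mice, with another chemistry, storage time and spin speed, gave another picture. AY036118 had 152, 135 and 175 CPM in fresh and 508, 357 and 366 in cryopreserved libraries, with no overlap and a log2 ratio of 1.41 (2.66-fold), at rank 778 of 9535. The same description held for 14.7% of all genes. Gm10076 had 116, 118 and 117 fresh and 251, 84.3 and 102 cryopreserved, so its groups overlapped, and the log2 ratio of 0.32 turned to -0.33 without the library at 251. Gm10076 took 5.5, 4.6 and 4.7% of the pair with Rpl41 in the fresh and 9.7, 5.3 and 8.3% in the cryopreserved libraries.

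By class, AY036118 was higher without overlap in 9 of 10 classes of the female mice, with log2 ratios from 0.51 to 1.69. Over library sums 56.9% of all genes lay above fresh in these mice, and no share by class was computed. Podocytes held the most among the classes before and after storage. Their 3 fresh libraries had 417 to 500 CPM, where endothelial cells, the next class, had 220 to 303, and their cryopreserved libraries 881 to 1197, where B cells had 379 to 898 and endothelial cells 460 to 580. Podocyte libraries did not overlap those of any other class measured among fresh cells, and overlapped those of B cells among cryopreserved cells. Gm10076 was higher without overlap in 0 of 10 classes.

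The lists of related genes moved apart from each other under storage. Among all genes, 36.6% (cold) and 44.2% (warm) lay above all fresh libraries after cryopreservation and 30% and 29.1% below, while 18.4% and 17% lay above and 33.6% and 27.6% below after methanol fixation. In the female mice 56.9% lay above and 19.2% below. Of a list of 13 genes, mainly rRNA-related and other structural noncoding ones, 3 were measured (Gm42418, Gm26917 and the protein-coding Lars2). All 3 lay above fresh in the cryopreserved C57BL/6J groups, with medians of 1.53 and 1.00 against 0.11 and 0.24 over all genes. In methanol-fixed cells Gm42418 lay above and Gm26917 below fresh in each dissociation, and Gm26917, beside AY036118 in the genome, had log2 ratios of -1.67 and -1.69. Nuclear long noncoding RNAs lay below fresh in 4 of 4 measured genes in both methanol groups, with log2 ratios of -3.19 and -3.18 for Malat1, a nuclear speckle RNA, and -1.22 and -1.40 for Neat1, the scaffold of paraspeckles. Of these noncoding RNAs, Gm42418 was thus high beside AY036118 after methanol fixation, and the nuclear ones and Gm26917 were low.

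Small ribosomal protein genes, the family of Rpl41, lay above fresh in 9 of 10 (cold) and 10 of 10 (warm) after cryopreservation, with median log2 ratios of 0.86 and 0.80. After methanol fixation 10 of 10 lay below fresh in cold, and in warm dissociation 6 lay below and 1 above. Of the predicted genes that resemble ribosomal protein pseudogenes, as Gm10076 does, 5 of 7 (cold) and 4 of 7 (warm) measured lay above fresh after cryopreservation, and after methanol fixation 1 of 6 lay below in cold and 2 of 6 above in warm dissociation. In the female mice 3 of 3 measured genes of the rRNA-related list (Lars2 included), 0 of 10 small ribosomal protein genes and 2 of 5 pseudogene-like genes lay above fresh. The 6 tubule transcripts and 4 hemoglobin genes all lay below fresh in cryopreserved C57BL/6J cells, with median log2 ratios of -5.79 and -5.14 for the tubule transcripts, beside the near loss of proximal tubule cells. The ratios of library sums thus compare suspensions of unlike make-up, while the class values compare cells gated by the same markers. Class sums can also hold free RNA from other cells, and its part in them was not tested.

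The remaining comparisons do not set stored against fresh cells, and they were tested with edgeR. Some of them use the same stored or fresh libraries. The tests were also chosen with earlier results of these data known, so their p-values are not independent of the choice of genes. Warm against cold dissociation gave no call for either gene in fresh or cryopreserved libraries, which does not show that they were unchanged. In fresh cells the log2 fold change was 0.63 (SE 0.43, edgeR adjusted p = 0.345) for AY036118 and -0.18 (edgeR adjusted p = 0.486) for Gm10076, where 15.2% of all genes were called. Without replicate 1 of the cold fresh cells, the library at 21.9 CPM, AY036118 was 1.35 higher on the log2 scale in warm cells (edgeR adjusted p = 0.0209). In cryopreserved cells the values were 0.67 (edgeR adjusted p = 0.179) and 0.12 (edgeR adjusted p = 0.765), with 6.6% of genes called.

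In methanol-fixed cells AY036118 was 1.24 (SE 0.28) higher on the log2 scale after warm dissociation, and the 3 warm libraries (1139 to 2376 CPM) lay above the 3 cold ones (490 to 909). Its unadjusted p was 0.00127 in the edgeR fit and its adjusted p 0.0545, just past the limit of 0.05, with 2.11% of genes called. The call depended on the setting: it was made without warm replicate 2 (1.44, edgeR adjusted p = 0.0460) by DESeq2 (1.26, adjusted p = 0.0369) and with the suspension code as a block (1.24, edgeR adjusted p = 0.00127). The opposite-strand gene Gm42418 rose by 1.30 (SE 0.23, edgeR adjusted p = 0.0211) and Gm26917 by 1.58 (edgeR adjusted p = 0.0351) in the same fit, and both had risen in warm fresh cells too, by 0.91 (edgeR adjusted p = 0.000684) and 1.74 (edgeR adjusted p = 0.00243). Gm10076 changed by 0.48 (edgeR adjusted p = 0.199) without a call, and DESeq2 called it (0.49, adjusted p = 0.0419).

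Within classes of methanol-fixed cells, AY036118 was higher after warm dissociation in 5 of 8 classes tested and positive in 8 of 8. Of all gene and class pairs, 2.83% were called and 1.9% called higher. The classes come from the same libraries, so they are not separate observations of the difference between libraries. Among the called classes, p was adjusted over 473 (B cell) to 7940 (proximal tubule) genes, against 10038 for the library sums. It rose by 1.21 in proximal tubule (SE 0.22, edgeR adjusted p = 0.00714), the most abundant epithelium of the kidney, and by 1.10 in thick ascending limb (SE 0.20, edgeR adjusted p = 0.00159), the salt-reabsorbing part of the loop of Henle. Macrophages (1.27, edgeR adjusted p = 0.00563), endothelial cells (1.10, edgeR adjusted p = 0.0343) and B cells (1.02, edgeR adjusted p = 0.0332, 2 warm libraries) were called as well. The count of 5 fell to 3, 2 and 4 classes without cold replicates 1, 2 and 3. It fell to 3 of 6, 4 of 6 and 4 of 8 without warm replicates 1, 2 and 3, and to 2 of 5 with a stricter gate. The endothelial call was lost in 4 of 6 fits that left out 1 library (edgeR adjusted p up to 0.207). The B cell call was lost in 3 of 4 (edgeR adjusted p up to 0.0710) and the proximal tubule call in 1 of 6 (edgeR adjusted p up to 0.0561). Gm10076 was called in 0 of 8 classes by edgeR, and 2 of the 8, the proximal tubule and the distal convoluted and connecting tubule, had an unadjusted p under 0.05. In fresh and cryopreserved cells AY036118 was called in 0 of 1 class tested each and Gm10076 in 0 of 9 each by edgeR, with 0 and 1 classes at an unadjusted p under 0.05 in each kind of cell, where 4.59% and 5.7% of all pairs were called.

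Nuclei and cells of the same strain set the genes apart. The authors counted intronic reads in nuclei only, so where an RNA lies and how it was counted cannot be told apart in these folds. In males, AY036118 had 4.87, 4.66 and 0 CPM in cells and 78.8, 118 and 99.7 in nuclei. The library at 0 held 3577 barcodes, and a count of 0 allows up to 2.20 CPM and 0.0839% of barcodes. The cell libraries held 8, 12 and 0 AY036118 UMIs, so the gene met the low-count filter through the nuclei. Its fitted log2 fold change of 4.61 (SE 0.41) rests on few counts in cells and is given without a call. Gm10076 fell by 5.77 (SE 0.45, edgeR adjusted p = 9.52e-06), from 1384, 1727 and 3078 CPM in cells to 24.2, 58.2 and 44.8 in nuclei. As many as 81.3% of all genes were called, 53.6% higher and 27.6% lower, and the median of all genes was 0.84.

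In females AY036118 was again higher and Gm10076 lower in nuclei. AY036118 rose by 0.55 (SE 0.10, edgeR adjusted p = 0.000877), from 152, 135 and 175 to 323, 316 and 274 CPM, and Gm10076 fell by 4.07 (SE 0.23, edgeR adjusted p = 3.11e-07), from 116, 118 and 117 to 6.22, 13.6 and 8.81. The edgeR fits also rescale each library, so their fold changes need not match ratios of CPM. Here 84.8% of genes were called, 43.8% higher and 41% lower, with a median of 0.10 over all genes. The Gm42418 strand rose in male nuclei by 1.93 (edgeR adjusted p = 0.000204) and fell in female nuclei by 1.62 (edgeR adjusted p = 5.30e-06), so AY036118 and the gene on its other strand moved in opposite directions in females. Rpl41 fell by 3.89 in males (edgeR adjusted p = 9.95e-07) and by 5.07 in females (edgeR adjusted p = 1.06e-08). All 10 small ribosomal protein genes fell in both nuclei groups, with medians of -5.03 and -6.82, and nuclear long noncoding RNAs rose in 4 of 4 tested in males and 4 of 5 in females, with Meg3, an imprinted RNA, falling in females.

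Most classes followed the sums. In males AY036118 had 0 to 5.43 CPM in proximal tubule cells and 77.95 to 120 in their nuclei, 0 to 13.9 and 76.6 to 126 in thick ascending limb, and 0 to 9.33 and 68.1 to 112 in distal convoluted and connecting tubule. These were the 3 classes fitted, and they met the filter through the nuclei, so their fold changes of 4.04 to 4.74 are given without a count of calls. Over 7 male classes Gm10076 had log2 fold changes from -3.29 in endothelial to -6.44 in intercalated cells. It had 0 to 56.5 CPM in podocyte nuclei, and its level in cells can carry it past the filter. These falls are therefore given without a count of calls. Of all gene and class pairs in males 74.6% were called, 44.4% higher and 30.2% lower. Over 8 female classes Gm10076 had log2 fold changes from -2.63 in endothelial cells to -4.49 in proximal tubule. The same limit holds, with 0 to 8.18 CPM in principal cell nuclei. AY036118 rose in 6 of 8 female classes, with the largest value in thick ascending limb (1.39, SE 0.13, edgeR adjusted p = 9.06e-08). Of all pairs in females 81.4% were called, 41.3% higher and 40.1% lower. Proximal tubule gave 0.17 (edgeR adjusted p = 0.122) and no call, although its CPM of 118 to 144 in cells and 234 to 283 in nuclei did not overlap. Principal cells (0.47, edgeR adjusted p = 0.0111) lost the call without cell replicate 2 (0.30, edgeR adjusted p = 0.157) or 3 (0.39, edgeR adjusted p = 0.0640), and stromal cells (0.76, edgeR adjusted p = 0.0101) without any 1 cell replicate (0.38 to 0.66).

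Podocytes went the other way. AY036118 fell by 0.42 in podocyte nuclei (SE 0.17, edgeR adjusted p = 0.0282), with 297 to 406 CPM in nuclei and 417 to 500 in cells, so the 3 libraries of each kind did not overlap. The call was lost without nuclei replicate 1 (-0.41, edgeR adjusted p = 0.0899) or nuclei replicate 3 (-0.13, edgeR adjusted p = 0.530).

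**Figure D4:**
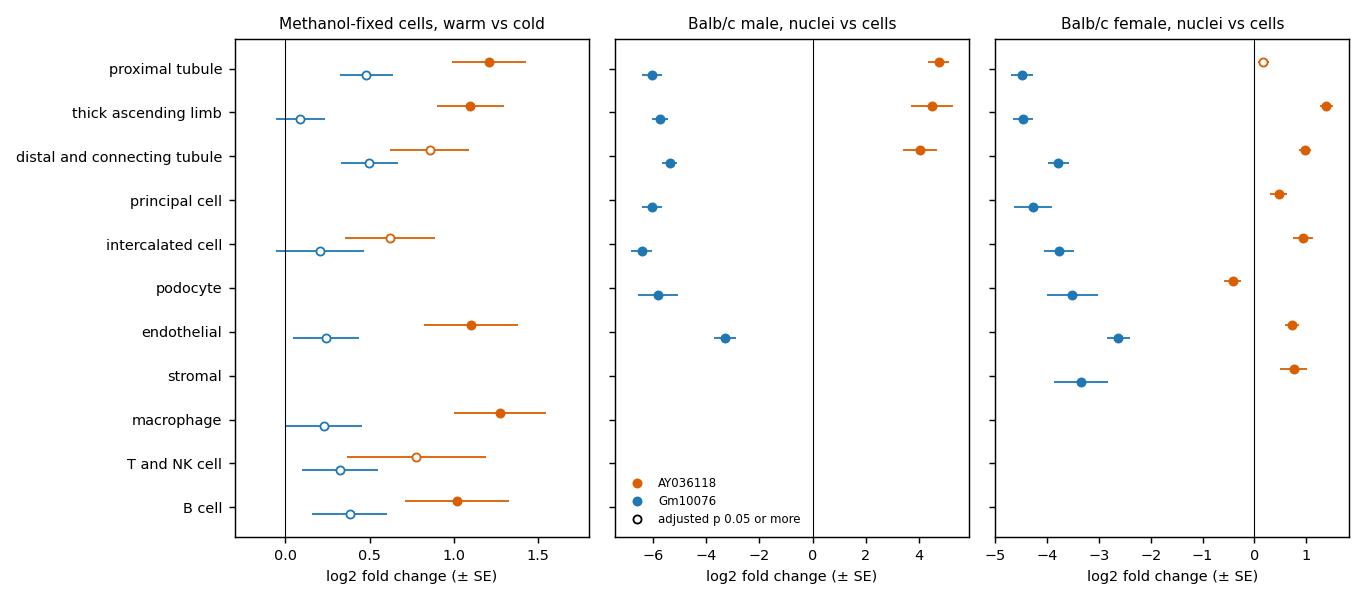
Log2 fold changes (points) with their standard errors (bars) from edgeR fits by marker-gated class, for warm against cold methanol-fixed cells and for nuclei against cells in male and female Balb/c mice; filled points have an adjusted p under 0.05. In nuclei Gm10076 lies at -2.63 or below in each class tested, and in female nuclei AY036118 lies above 0 in each class but podocytes.

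How nuclei were prepared made no difference called by edgeR for either gene, while DESeq2 called AY036118 lower in sucrose than in 3x500g nuclei (-0.28, adjusted p = 0.0234). AY036118 changed by -0.17 from 3x500g to 1x2000g (edgeR adjusted p = 0.180), by -0.27 from 3x500g to sucrose (edgeR adjusted p = 0.0633) and by 0.07 from sucrose to 1x2000g (edgeR adjusted p = 0.675). Gm10076 changed by 0.05, -0.06 and 0.09 in the same order (edgeR adjusted p = 0.910, 0.873 and 0.853). All genes were called at 34.9%, 45.3% and 13.1% in these comparisons, and Rpl41 rose by 0.73 in 1x2000g (edgeR adjusted p = 0.00472) and by 0.45 in sucrose nuclei (edgeR adjusted p = 0.00231) against 3x500g. The share of AY036118 in the pair with Gm42418 was 14.9 to 15.4% in sucrose nuclei, below the 18.2 to 26.6% of the sorted ones.

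The CPM of Gm10076 was lower in bulk RNA than in 10x cells, but bulk reads and 3′ UMIs are unlike measures. The summed small ribosomal protein genes likewise had a mean of 24193 CPM in cold fresh C57BL/6J 10x libraries and 740 in bulk RNA of cold suspensions. Gm10076 had 12.5 to 18.5 CPM in C57BL/6J suspensions, 4.21 to 6.55 in intact male Balb/c kidney and 2.57 to 3.95 in female Balb/c bulk RNA, on 9 to 130 counts per library. A whole-kidney value cannot tell fewer cells of a type from less RNA per cell. Warm and cold suspensions differed by 0.02 (edgeR adjusted p = 0.977, 8.73% of genes called) and cold suspensions and intact kidney by 0.10 (edgeR adjusted p = 0.773, 19.9% called). Gm10076 took 6.61 to 9.73% of the counts of the pair with Rpl41 in C57BL/6J bulk RNA, below the 11.3 to 15.8% of the fresh 10x libraries of the same suspensions. The 95% Wilson intervals were up to 3.82 points wide over the bulk libraries. Read length and the part of the transcript read differ between bulk and 10x libraries, and their part in the share was not tested. The authors removed reads matching the ribosomal DNA repeat from bulk libraries before mapping. Gm42418 had 0.285 to 7.18 CPM in C57BL/6J and female bulk RNA and 155 to 271 in intact male kidney.

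The genes whose levels followed each member most closely over the 39 10x libraries were ranked by Pearson's r of log2(CPM + 1), among 9474 genes, as a description in which libraries share strain, chemistry and storage. For AY036118 they were Pstk (r = 0.80), Mterf3 (0.74), Uchl5 (0.74), Gm42418 (0.72) and Vta1 (0.72). For Gm10076 they were Snrpg (0.98), Polr2l (0.97), AI413582 (0.96) and Toporsos (0.96), with Rpl41 in place 10 (0.96). Between AY036118 and Gm10076 r was -0.38 over the 39 libraries and 0.37 over the 18 C57BL/6J libraries. In the 18 C57BL/6J libraries alone, AY036118 was most like Gm10116 (0.93), Hist2h2aa1 (0.92), Pfdn4 (0.91), Anapc10 (0.91) and Map1lc3b (0.89), with Gm42418 in place 64 (0.78), and Gm10076 was most like Card19 (0.88), Selm (0.87), Eif1 (0.87) and Slx1b (0.86), with Rpl41 in place 1748 (0.31).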

How the data were processed

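The 54 libraries were grouped by the labels into 18 groups of 3. Per the labels and the study's methods, 10x reads were processed with Cell Ranger 2.1.1 (exonic reads in cells, exonic and intronic reads in nuclei), genes found in few cells were dropped, and barcodes were filtered on genes and mitochondrial share. Bulk reads, after removal of those matching ribosomal DNA, were mapped with STAR 2.6.1a to GRCm38 and counted with featureCounts. The deposited files hold raw counts, UMIs per gene and barcode for 10x and reads per gene for bulk libraries. No column of per-sample values was left unmapped. The members, gene lists and tests were chosen with earlier results of these data known.

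Mitochondrial genes were left out of all 10x libraries because nuclei files lack them, and of the bulk libraries as well. A barcode joined a class with at least 2 of its markers found and at least 60% of the UMIs of 95 markers from that class. Near the limit means 50 to 70%. No doublet caller was run, and mixed barcodes stayed ungated. Classes needed 10 cells per library. UMIs were summed per library, or per library and class, and tested with edgeR 4.0.16 quasi-likelihood fits (TMM, low counts filtered, Benjamini-Hochberg adjustment over all genes tested, calls at an adjusted p under 0.05) on R 4.3.3. Storage against fresh was described by the log2 ratio of mean CPM over genes with a mean of at least 10. For the ranks and for the shares of all genes with a log2 ratio of at least 1, 1 CPM was added to each mean. Named genes were the members, the 5 genes most correlated with each, and the lists. One correlated gene is not reported here. The likeness over 18 libraries, the replicate block and the female against male term were added after seeing the data. The fits were tested on simulated data. For library sums, they recovered 85% of 2-fold changes in bulk suspensions and 62% in fresh cells (warm against cold). They recovered 46% in methanol-fixed cells and 40% in male nuclei against cells. A missing call therefore does not show that a gene was unchanged. Alternatives were DESeq2 1.42.0, RLE size factors, no filter, a stricter gate (3 markers, 80%) and each library left out.

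Sequences come from GENCODE vM21 gene models on GRCm38, later than the annotation used for counting. Depth ran from 983522 to 35170947 UMIs. Intervals are 95% Wilson intervals, and the limit for a count of 0 is 3 counts.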

Additional observations from a re-analysis of the deposited data

Results flagged for a closer look

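AY036118 differed between the sexes' experiments in its change from cells to nuclei. The edgeR term for the difference (female minus male) was -4.17 on the log2 scale (SE 0.41), and it ranged from -4.68 to -3.53 when single libraries were left out. The opposite-strand gene Gm42418 gave -3.66 (edgeR adjusted p = 3.81e-06). For Gm10076 the same term was 1.59 (SE 0.48, edgeR adjusted p = 0.0140), with 1.24 to 2.40 over left-out libraries, beside -1.30 for Rpl41 (edgeR adjusted p = 0.000244). The male cells held 8, 12 and 0 AY036118 UMIs, so the AY036118 term rests on few counts and is given without a call. The male and female groups also differ in chemistry, age and breeding, which cannot be told apart from sex.

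In female mice AY036118 was lower in nuclei than in cells in podocytes alone among 8 classes, with every nuclei library at or below 406 CPM and every cell library above. The difference between podocytes and the other classes was not tested.

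Gm10076 was found in intact male Balb/c kidney, bulk libraries that no comparison used, at a mean of 5.69 CPM (46, 9 and 29 counts).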

How the results depend on the processing

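Of the results that answer a comparison, 115 alternatives were counted as unchanged, 5 as moved and 5 as newly called. Of the values that left out 1 library, 207 were unchanged, 6 moved, 13 reversed in direction and 2 newly called. For single classes with a call, 5 alternatives and 15 values that left out 1 library lost it, and these are not all listed. For a test, unchanged means the same direction and call. For a ratio of stored to fresh it means a shift below the combined SD of the libraries, and for classes called a similar number. The Gm10076 ratio in female cryopreserved cells, -0.33 to 0.59 over left-out libraries, is thus counted as unchanged although its sign turned. For the results that answer a comparison, the settings not counted as unchanged are given here. The cause was not tested. Classes called for AY036118 in male nuclei are listed for completeness only. Where a filter was used, the gene passed it through the nuclei, and the male cells held few AY036118 UMIs. Those counts of classes therefore cannot show how firm the male difference is, and no conclusion is drawn from them. In methanol-fixed cells, warm against cold, AY036118 was called with DESeq2 (1.26, adjusted p = 0.0369), without a filter on low counts (1.25, edgeR adjusted p = 0.0410) and with a replicate block on the suspension codes (1.24, edgeR adjusted p = 0.00127), and Gm10076 with DESeq2 (0.49, adjusted p = 0.0419). DESeq2 also called AY036118 lower in sucrose than in 3x500g nuclei (-0.28, adjusted p = 0.0234). Classes called for AY036118 were 2 with a stricter gate and 2 without a filter in methanol-fixed cells, and 6 without a filter in male nuclei, and Gm10076 gave 1 in methanol-fixed cells without a filter. The AY036118 ratio of warm cryopreserved to fresh cells was 1.40 as a median over classes. Principal cells of female nuclei turned to -0.20 for AY036118 with the stricter gate. Leaving out single libraries gave ranges of -0.17 to 0.16 (bulk warm against cold) and -0.094 to 0.20 (bulk suspension against intact) for Gm10076, 0.20 to 1.35 for AY036118 in fresh and -0.057 to 0.26 for Gm10076 in cryopreserved cells, and 0.92 to 1.48 for AY036118 in methanol-fixed cells. In nuclei they were -0.21 to 0.36, -0.27 to 0.25 and -0.17 to 0.32 for Gm10076 (1x2000g against 3x500g, sucrose against 3x500g, 1x2000g against sucrose) and -0.022 to 0.12 for AY036118 (1x2000g against sucrose). Classes called ran from 0 to 1 (AY036118, fresh), 2 to 4 (AY036118, methanol), 2 to 5 (AY036118, male nuclei) and 0 to 1 (Gm10076, methanol). The replicate block pairs libraries by the suspension code in the column names. The same codes deviated together in no consistent way (correlations of -0.17 to 0.18 over the 9 pairs). With 3 libraries per group this cannot decide whether the samples share more than a code. Under the block AY036118 had 0.78 in fresh (edgeR adjusted p = 0.139) and 0.72 in cryopreserved cells, and Gm10076 -0.18, 0.14 and 0.53 (edgeR adjusted p = 0.0635) in fresh, cryopreserved and methanol-fixed cells. It changed no other call. Depth limits AY036118 in fresh, cryopreserved and male Balb/c cells, with 0 to 134 UMIs per library. The stricter gate left no class to test for AY036118 in cryopreserved cells.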
